A study of Mus musculus with 9 samples.

Results

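Immunoglobulin gene transcripts were described in Tregs (regulatory T cells) sorted from mouse tumours. The genes are all rows of the authors' normalized table whose symbol starts with Ighv, Igkv, Iglv, Ighg, Igkc or Iglc, or is Ighm, Ighd, Igha or Ighe. This rule found 143 of the 16409 genes: 10 constant region genes and 133 V genes, of which 50 are heavy chain, 80 kappa and 3 lambda V genes. The rule reads gene names only, so no measured value chose the genes, although the table itself holds only genes with more than 1 FPKM in some library. The unnormalized table holds 361 rows that match the same rule. The other 218 rows, among them Ighg3, Ighe and Iglc4, never exceeded 0.977 FPKM and are not counted further.

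RNA was sequenced from 9 pools of CD4+ GFP+ cells, each from 3 to 4 C57BL/6 mice whose genotype is labelled wild-type, taken from tumours of the Lewis lung carcinoma line (LLC) on day 14. For the 3 anti-β8 pools the LLC cells expressed the integrin subunit β8, and the mice were given anti-β8 antibody (clone C6D4, 7 mg/kg into the peritoneum 2 times a week from day 7). For the 3 β8 isotype pools the cells likewise expressed β8, and an isotype control antibody was given. For the 3 Mock pools the LLC cells were mock-transfected and the mice are labelled untreated. The labels give neither the GFP reporter, the number of sorted cells, the purity of the sort nor library batches. Since Mock mice had no antibody, β8 on the tumour and the antibody go together in both comparisons with Mock and cannot be told apart.

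Antibodies are made by B cells and by plasma cells, the secreting cells that B cells become. Each V gene is one of many that a B cell can join to short D and J segments (J alone for light chains) in front of a constant region gene, so that 1 B cell clone mainly transcribes 1 heavy and 1 light V gene. The heavy constant gene sets the isotype: Ighm and Ighd give the IgM and IgD of naive B cells, and class switching replaces them by Ighg (IgG), Igha (IgA) or Ighe (IgE) genes. Light chains are kappa or lambda, and in mice most are kappa. Plasma cells hold far more immunoglobulin mRNA per cell than B cells, and in bulk samples such as these pools fewer cells of a type and less RNA per cell cannot be told apart.

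Of the 143 genes, 81 lie on chromosome 6 (kappa), 56 on chromosome 12 (heavy) and 6 on chromosome 16 (lambda), and all 143 identifiers were found in the GENCODE M21 annotation of build GRCm38. It calls 8 of the V genes pseudogenes. Sequences of 3 sets of genes from the GENCODE M21 transcripts are shown because the results turn on telling these genes apart. The first set is the end of the coding sequence of 4 members of kappa V family 3, the family with the highest FPKM summed over the pools, of which different members were high in different pools. Capitals mark bases that differ from Igkv3-4.

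Igkv3-4 (chr6:70672228-70672377, + strand): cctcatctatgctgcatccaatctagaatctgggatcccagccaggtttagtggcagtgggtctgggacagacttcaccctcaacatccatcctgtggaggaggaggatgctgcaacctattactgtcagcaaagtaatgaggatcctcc
Igkv3-2 (chr6:70698918-70699067, + strand): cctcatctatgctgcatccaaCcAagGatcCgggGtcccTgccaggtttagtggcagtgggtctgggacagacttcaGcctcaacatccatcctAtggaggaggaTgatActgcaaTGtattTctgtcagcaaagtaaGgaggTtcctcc
Igkv3-5 (chr6:70663746-70663895, + strand): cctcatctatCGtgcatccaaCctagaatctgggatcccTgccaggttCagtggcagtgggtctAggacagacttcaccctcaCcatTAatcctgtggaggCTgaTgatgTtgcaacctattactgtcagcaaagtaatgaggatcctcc
Igkv3-10 (chr6:70573081-70573230, + strand): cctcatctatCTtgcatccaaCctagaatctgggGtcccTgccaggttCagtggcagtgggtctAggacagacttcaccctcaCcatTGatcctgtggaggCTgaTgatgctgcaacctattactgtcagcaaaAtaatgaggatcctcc

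Over the whole coding sequence Igkv3-5 and Igkv3-10 were 98.3% identical, and Igkv3-4 was 91.4% to 91.9% identical to the other 3. The second set is the end of the coding sequence of the 3 lambda constant genes, with capitals for bases that differ from Iglc1.

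Iglc1 (chr16:19061755-19061904, - strand): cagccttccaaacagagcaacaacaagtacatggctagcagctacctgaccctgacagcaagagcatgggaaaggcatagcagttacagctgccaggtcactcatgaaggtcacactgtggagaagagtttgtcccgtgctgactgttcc
Iglc2 (chr16:19198539-19198688, - strand): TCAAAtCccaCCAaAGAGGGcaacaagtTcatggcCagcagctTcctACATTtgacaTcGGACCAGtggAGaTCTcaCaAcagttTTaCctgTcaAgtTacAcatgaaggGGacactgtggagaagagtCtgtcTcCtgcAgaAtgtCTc
Iglc3 (chr16:19065368-19065517, - strand): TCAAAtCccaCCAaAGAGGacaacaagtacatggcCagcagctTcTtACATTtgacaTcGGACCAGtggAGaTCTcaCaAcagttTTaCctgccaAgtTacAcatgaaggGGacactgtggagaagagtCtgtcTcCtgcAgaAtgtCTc

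Iglc2 and Iglc3 were 96.2% identical over their coding sequence, against 73.4% and 74.5% for each of them with Iglc1, and Iglv1 and Iglv2 were 96.9% identical. Reads can be shared between such near copies, so the split between Igkv3-5 and Igkv3-10, between Iglc2 and Iglc3 and between Iglv1 and Iglv2 is uncertain. The third set is the end of the heavy V genes that led their class in at least 1 pool. Ighv8-7, which led in Mock pool 1 and is annotated as a pseudogene, is not shown. Capitals mark the last in-frame cysteine codon, the conserved cysteine after which the V gene runs into the joined D and J segments.

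Ighv14-1 (chr12:113931953-113932052, - strand): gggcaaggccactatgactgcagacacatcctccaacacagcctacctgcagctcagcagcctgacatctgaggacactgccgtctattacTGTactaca
Ighv1-75 (chr12:115833950-115834049, - strand): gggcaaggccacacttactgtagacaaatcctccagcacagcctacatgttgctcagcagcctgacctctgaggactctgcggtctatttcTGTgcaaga
Ighv1-64 (chr12:115507545-115507644, - strand): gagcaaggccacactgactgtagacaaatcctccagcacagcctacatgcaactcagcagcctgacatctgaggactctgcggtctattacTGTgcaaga
Ighv5-17 (chr12:113859149-113859248, - strand): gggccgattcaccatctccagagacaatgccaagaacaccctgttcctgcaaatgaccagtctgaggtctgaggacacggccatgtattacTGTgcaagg
Ighv1-61 (chr12:115359140-115359239, - strand): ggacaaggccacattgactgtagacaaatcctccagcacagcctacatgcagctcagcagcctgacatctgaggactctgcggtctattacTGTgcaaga
Ighv1-15 (chr12:114657353-114657452, - strand): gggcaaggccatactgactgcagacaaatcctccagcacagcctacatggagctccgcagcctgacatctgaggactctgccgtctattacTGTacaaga
Ighv5-6 (chr12:113625506-113625605, - strand): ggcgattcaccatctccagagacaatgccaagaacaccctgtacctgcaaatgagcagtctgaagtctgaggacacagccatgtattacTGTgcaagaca

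The amounts below are FPKM, which counts fragments relative to transcript length and library size, a level that can be compared between genes of different length. Levels, shares and genes at 0 are read from the unnormalized table, and tests from the normalized one. Values of a group stand in the order of its pools 1, 2 and 3. Immunoglobulin transcripts were present in every pool, and the amount differed more between pools of 1 group than between the group means. In the normalized table the 143 genes summed to 3661, 1253 and 1474 FPKM in the anti-β8 pools, to 1836, 849 and 2647 FPKM in the β8 isotype pools, and to 680, 1710 and 776 FPKM in the Mock pools. The group means were 2129 ± 1331 in anti-β8, 1778 ± 900 in β8 isotype and 1055 ± 569 in Mock (SD, n = 3 pools each). As a share of all FPKM of the unnormalized table the genes made up 0.568%, 0.193% and 0.230% in anti-β8, 0.287%, 0.134% and 0.408% in β8 isotype, and 0.107%, 0.269% and 0.122% in Mock. The highest pool, anti-β8 pool 1, was 5.38-fold above the lowest, Mock pool 1, and the ranges of all 3 groups overlapped.

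**Figure D1:**
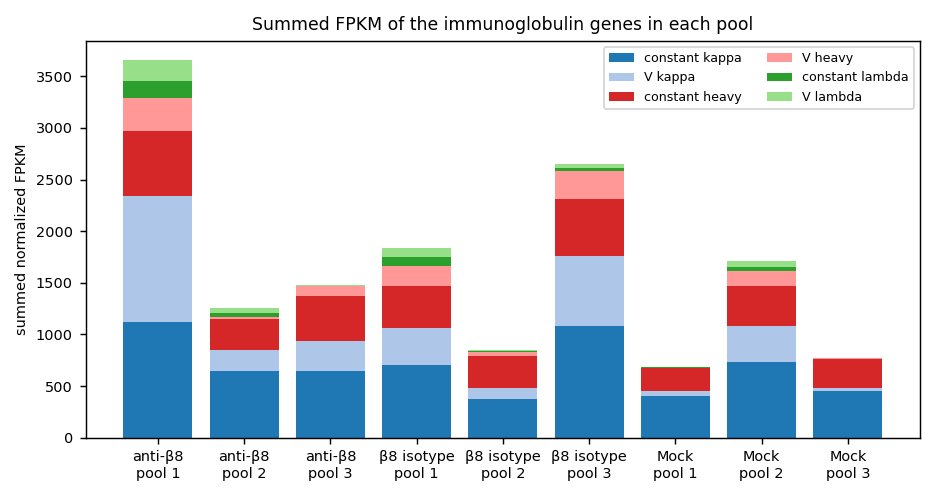
Summed normalized FPKM of the immunoglobulin genes (vertical axis) in each of the 9 pools (horizontal axis), stacked by constant and V genes of the kappa, heavy and lambda chains. The constant kappa and constant heavy parts are large in every pool, whereas the V parts nearly vanish in Mock pools 1 and 3.

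Anti-β8 pools 2 and 3 stand apart from the other libraries: 9772 and 9283 genes reached 1 FPKM there, against 11785 to 12177 in the other 7. Foxp3, the defining Treg transcription factor, was at 74.0 to 135 FPKM in all 9 pools, and the T cell receptor constant gene Trac at 1642 to 2221 FPKM, so the labelled cell type had its markers in every library. Itgb8, the gene of the β8 subunit, was at 2.16 to 11.5 FPKM in these host cells, which does not check the β8 put into the tumour line.

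Among the constant region genes Igkc and Ighm were abundant throughout. Igkc (ENSMUSG00000076609, chr6:70726435-70726966, + strand), the only kappa constant gene, was the most abundant member in every pool. It was at 1139, 658 and 633 FPKM in anti-β8, 623, 384 and 931 in β8 isotype, and 402, 809 and 443 in Mock. It ranked between 74 and 339 among all genes of a library. The 3 groups overlapped.

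Ighm (ENSMUSG00000076617, chr12:113418558-113422730, - strand), the IgM constant gene, was at 393, 295 and 396 FPKM in anti-β8, 283, 292 and 336 in β8 isotype, and 214, 284 and 271 in Mock. It varied least of the members: its highest pool was 1.85-fold above its lowest, against 2.97-fold for Igkc. All 3 anti-β8 pools were above all 3 Mock pools. Both genes stayed high where nearly every other member was low: they made up 90.9% and 92.6% of the immunoglobulin FPKM in Mock pools 1 and 3 and 59.9% in Mock pool 2. Their share was 41.3%, 75.1% and 71.0% in anti-β8 and 51.3%, 76.6% and 50.1% in β8 isotype.

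The V genes were far more uneven. Summed, they varied 35.7-fold over the pools. They reached 1758, 267 and 381 FPKM in anti-β8, 668, 170 and 1035 FPKM in β8 isotype, and 56.1, 576 and 49.3 FPKM in Mock. Mock pools 1 and 3 were the lowest of all 9, and Mock pool 2 lay among the β8 isotype pools.

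Set against Igkc, the kappa V genes gave a ratio of 1.08, 0.308 and 0.453 in anti-β8, 0.606, 0.307 and 0.761 in β8 isotype, and 0.124, 0.452 and 0.0905 in Mock. The heavy V genes set against the heavy constant genes gave 0.497, 0.0438 and 0.215 in anti-β8, 0.520, 0.138 and 0.546 in β8 isotype, and 0.0289, 0.372 and 0.0332 in Mock. Constant heavy and kappa transcripts were thus present in several pools with few V transcripts beside them. In anti-β8 pool 2, 309 FPKM of constant heavy genes stood beside 13.5 FPKM of heavy V genes, and in Mock pool 1, 217 FPKM stood beside 6.27 FPKM.

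The lambda genes behaved otherwise in the pools with any lambda V transcript. Summed lambda constant genes were at 165, 35.1 and 0 FPKM in anti-β8, 83.7, 9.05 and 30.3 in β8 isotype, and 3.15, 39.9 and 1.83 in Mock. The 3 lambda V genes summed to 209, 51.3 and 0 FPKM in anti-β8, 86.6, 7.99 and 36.4 in β8 isotype, and 0, 61.6 and 0 in Mock. In the 6 pools with any lambda V transcript the ratio of V to constant lay between 0.883 and 1.54. In Mock pools 1 and 3 the ratio was 0, since 3.15 and 1.83 FPKM of lambda constant genes stood beside no lambda V transcript. Those pools also had the lowest heavy and kappa ratios. No difference between chains was tested, and the ratios depend on how reads over a joined V segment were assigned.

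**Figure D2:**
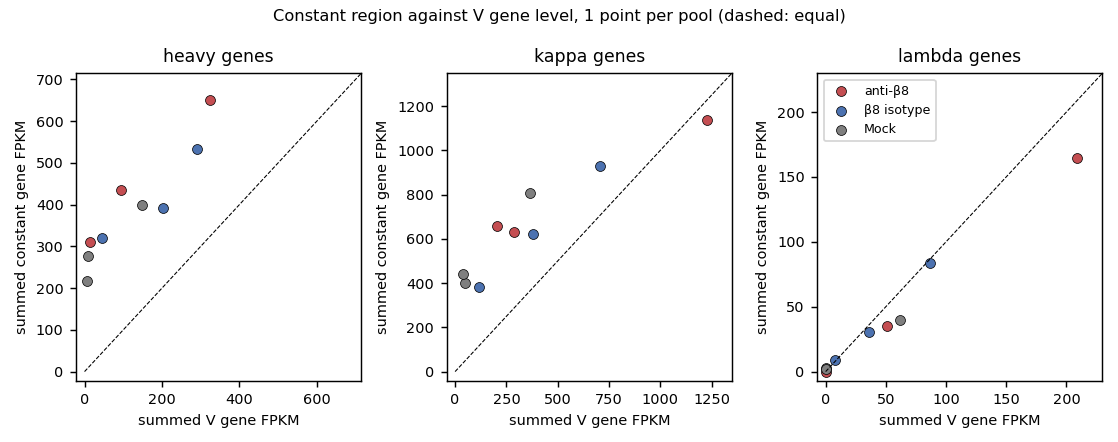
Summed constant gene FPKM (vertical axis) against summed V gene FPKM (horizontal axis) for heavy, kappa and lambda genes in the unnormalized table, 1 point per pool, coloured by group, with a dashed line of equal values. Heavy and kappa points start well above 0 on the vertical axis, at 217 and 384 FPKM, while the lambda points begin near 0 on both axes and lie near the line.

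The heavy chain isotypes were read from the constant genes. Ighm led the heavy constant genes in every pool, and Ighg1 came next in 5 of the 9. Ighm held 60.5%, 95.5% and 91.0% of the constant heavy FPKM in anti-β8, 72.2%, 91.5% and 63.2% in β8 isotype, and 98.7%, 71.0% and 97.9% in Mock. The IgG genes together held 37.3%, 2.33% and 3.79% in anti-β8, 25.6%, 7.70% and 34.8% in β8 isotype, and 0.0178%, 27.0% and 0% in Mock. The class-switched share therefore separated the pools within each group rather than the groups: anti-β8 pool 1, β8 isotype pools 1 and 3 and Mock pool 2 were above 25%, and the other 5 were below 8%.

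Ighg1 (chr12:113325240-113330523, - strand), the IgG1 gene, was at 204, 7.11 and 16.5 FPKM in anti-β8, 32.3, 15.7 and 143 in β8 isotype, and 0.0386, 108 and 0 in Mock. Ighg2c (chr12:113285325-113288932, - strand), the IgG2c gene that C57BL/6 mice carry, was at 37.3, 0.0937 and 0 FPKM in anti-β8, 67.9, 8.94 and 32.2 in β8 isotype, and 0, 0.0810 and 0 in Mock. All 3 β8 isotype pools held Ighg2c above every Mock pool, and anti-β8 pool 1 lay within the β8 isotype range while anti-β8 pools 2 and 3 lay at the Mock level. The makeup of IgG differed between the pools rich in it: in Mock pool 2 Ighg1 was at 108 FPKM beside 0.0810 FPKM of Ighg2c, and in β8 isotype pool 1 Ighg2c exceeded Ighg1.

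Ighg2b was above 1 FPKM in β8 isotype pool 3 alone, at 10.1 FPKM, and was at 0.938 in anti-β8 pool 1, at 0.0892 in β8 isotype pool 1 and at 0 elsewhere. Its coding sequence was 87.6% identical to that of Ighg2c. Ighd, the IgD gene, was at 14.0, 6.69 and 22.9 FPKM in anti-β8, 7.92, 1.82 and 10.3 in β8 isotype, and 1.38, 5.47 and 3.55 in Mock. Each anti-β8 pool was above each Mock pool. It was highest in anti-β8 pool 3, where IgG was low.

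Igha (chr12:113254830-113260236, - strand), the IgA gene, went the other way at very low levels. It was at 0.124, 0 and 0 FPKM in anti-β8, 0.634, 0.623 and 0.274 in β8 isotype, and 1.36, 2.63 and 2.30 in Mock. The groups did not overlap in any of the 3 comparisons. Igha was kept for testing only because the 3 Mock pools reached 1 FPKM.

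Kappa was the main light chain in every pool. Lambda held 12.6%, 5.06% and 0% of the constant light chain FPKM in anti-β8, 11.9%, 2.30% and 3.15% in β8 isotype, and 0.777%, 4.71% and 0.412% in Mock. Anti-β8 pool 3 had no lambda transcript at all, constant or V, although its Igkc was at 633 FPKM.

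The lambda constant genes differed in which pools they marked. Iglc1 was at 115, 5.33 and 0 FPKM in anti-β8, 70.4, 1.26 and 9.30 in β8 isotype, and 0, 5.29 and 0 in Mock. Iglc2 was at 32.0, 29.7 and 0 FPKM in anti-β8, 6.39, 5.66 and 11.2 in β8 isotype, and 0, 21.6 and 1.83 in Mock. Iglc3 reached 17.5 FPKM in anti-β8 pool 1 and 13.0 in Mock pool 2, and was at 0 in 3 pools. Iglc1 was thus the main lambda gene of anti-β8 pool 1 and β8 isotype pool 1, and Iglc2 that of anti-β8 pool 2, β8 isotype pools 2 and 3 and Mock pools 2 and 3.

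Iglv1 was the most abundant V gene of all in anti-β8 pool 1 and β8 isotype pool 1. It was at 193, 1.72 and 0 FPKM in anti-β8, 82.8, 5.98 and 30.5 in β8 isotype, and 0, 58.1 and 0 in Mock. Iglv2 was at 15.3, 49.6 and 0 FPKM in anti-β8, 1.83, 2.00 and 0.612 in β8 isotype, and 0, 0.610 and 0 in Mock. Anti-β8 pool 2 was the only pool in which Iglv2 exceeded Iglv1, and in it Iglc2 exceeded Iglc1 as well. Iglv3 did not exceed 5.32 FPKM.

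The pools differed in how many V genes they held. Of the 133 V genes, 98, 18 and 18 were above 0 in the anti-β8 pools, 81, 41 and 99 in the β8 isotype pools, and 16, 56 and 23 in the Mock pools. Anti-β8 pools 2 and 3 and Mock pools 1 and 3 had few V genes, but at different levels. The median of the V genes above 0 was 4.51, 12.6 and 20.9 FPKM in anti-β8, 1.46, 1.5 and 3.27 in β8 isotype, and 2.83, 2.71 and 1.63 in Mock. At 10 FPKM or more stood 29, 11 and 15 V genes in anti-β8, 14, 5 and 16 in β8 isotype, and 1, 9 and 0 in Mock. In anti-β8 pool 3, then, 15 of the 18 V genes found reached 10 FPKM, while in Mock pool 3 none of 23 did. The lowest V gene above 0 was at 0.418 to 1.13 FPKM over the 9 pools. The low number of V genes in anti-β8 pools 2 and 3 goes together with the low number of genes of any kind found there, and the part of this in the V gene counts was not tested.

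**Figure D3:**
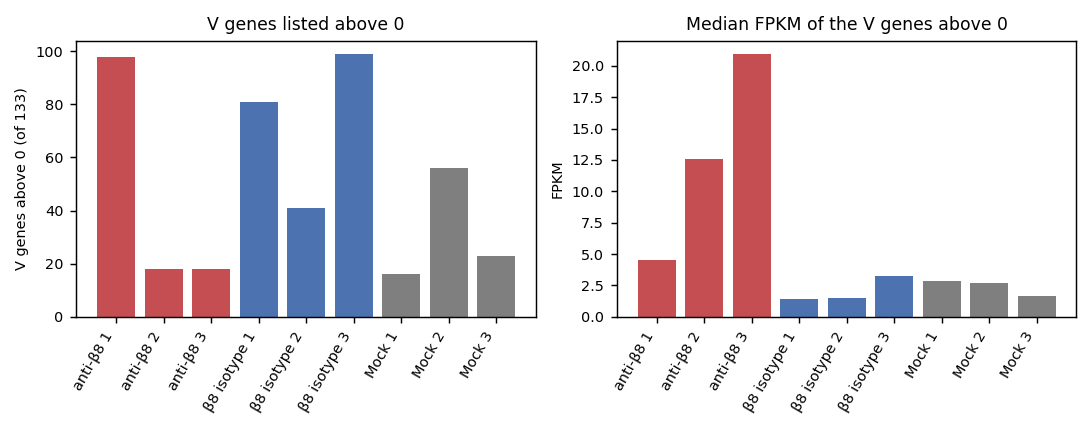
Number of V genes above 0 of the 133 V genes (left) and median FPKM of those V genes (right) in each pool of the unnormalized table, bars coloured by group. Anti-β8 pools 2 and 3 have 18 V genes each at medians of 12.6 and 20.9 FPKM, whereas the β8 isotype pools have 41 to 99 at medians of 1.46 to 3.27 FPKM.

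No pool was held by 1 V gene. The highest V gene took 11%, 18.5% and 13.4% of the V FPKM in anti-β8, 12.4%, 19.7% and 12.7% in β8 isotype, and 18.3%, 18.4% and 15.4% in Mock. The inverse Simpson index, the number of equally abundant V genes that would give the same evenness, was 18.2, 10.3 and 13.4 in anti-β8, 15.4, 9.96 and 21.8 in β8 isotype, and 10.5, 10.9 and 14.7 in Mock. The groups overlapped in both measures. Both measures mix the chains, and within a chain the leading V gene could hold far more. The leading heavy V gene held 17.4% (β8 isotype pool 3) to 73.0% (Mock pool 1) of the heavy V FPKM. In anti-β8 pool 2, with 1 heavy V gene, it held 100%. The leading kappa V gene held 13.0% to 29.1%. The leading lambda V gene held 74.9% to 96.6% in the pools with any lambda V transcript.

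No V gene was above 0 in all 9 pools, and 28 of the 133 were found in 1 pool only. In all 3 pools of their group stood 4 V genes in anti-β8, 28 in β8 isotype and 2 in Mock. Anti-β8 pools 2 and 3 shared 4 V genes, 22.2% of the 18 in each, and Mock pools 1 and 3 shared 2, which is 12.5% of the 16 in pool 1 and 8.70% of the 23 in pool 3. Anti-β8 pool 1, with 98 V genes, held 17 of the 18 in each of anti-β8 pools 2 and 3 (94.4%), 14 of the 16 of Mock pool 1 (87.5%) and 19 of the 23 of Mock pool 3 (82.6%). β8 isotype pool 2, with 41, held 12 (66.7%) and 7 (38.9%) of those of anti-β8 pools 2 and 3, 6 of those of Mock pool 1 (37.5%) and 8 of those of Mock pool 3 (34.8%). Such overlaps depend on the length of the lists: anti-β8 pool 1 held 98 of all 133 V genes, so it would hold most of any short list. The overlap to be expected from the lengths alone was not computed. Igkv17-127, Igkv6-32 and Igkv6-25 were the most widespread, above 0 in 8 pools each.

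Kappa family 3, whose sequences are given above, held the highest sum of all V families over the pools, with 8 of its 13 listed genes among the members. Igkv3-4 was at 159, 0 and 20.3 FPKM in anti-β8, 45.3, 33.5 and 132 in β8 isotype, and 0, 0 and 2.54 in Mock. It led the kappa V genes in anti-β8 pool 1 and in β8 isotype pools 2 and 3. Igkv3-2 was at 153, 11.7 and 0 FPKM in anti-β8, 1.62, 2.03 and 3.27 in β8 isotype, and 0 in all 3 Mock pools. Igkv3-5 led in Mock pool 2 at 106 FPKM, where its near copy Igkv3-10 was at 77.5 FPKM, while Igkv3-4 and Igkv3-2 were at 0 there. Anti-β8 pool 3 showed the same pair at 27.8 and 32.7 FPKM. Of these, Igkv3-2 and Igkv3-5 were picked out after their values were seen.

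The other leading kappa V genes were also unevenly spread. Igkv12-41 was at 100 FPKM in anti-β8 pool 1, at 48.3 and 73.1 in β8 isotype pools 1 and 3, and at 0 in the other 6 pools. Igkv8-30 was at 138 FPKM in anti-β8 pool 1 and 57.4 in β8 isotype pool 1, against 6.54 or less elsewhere. In the pools with little V transcript the leaders were Igkv13-84 (33.0 FPKM, anti-β8 pool 2), Igkv17-127 (50.9, anti-β8 pool 3), Igkv15-103 (10.2, Mock pool 1) and Igkv4-72 (7.59, Mock pool 3). Igkv4-63 led in β8 isotype pool 1 at 58.1 FPKM and did not exceed 1.34 FPKM in any other pool.

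Of the 50 heavy V genes, 31, 1 and 5 were above 0 in anti-β8, 27, 9 and 33 in β8 isotype, and 2, 12 and 6 in Mock. Ighv14-1 led in anti-β8 pool 1 at 90.7 FPKM, was at 42.2 in β8 isotype pool 3 and was at 0 in the other 7 pools. Ighv1-15 was likewise found in those 2 pools alone, at 48.6 and 50.4 FPKM. Ighv5-17 was at 22.8 FPKM in anti-β8 pool 1, 58.4 in β8 isotype pool 1 and 26.6 in Mock pool 2. Ighv1-75 was the only heavy V gene of anti-β8 pool 2, at 13.5 FPKM, and Ighv1-64 led the 5 of anti-β8 pool 3 at 41.9 FPKM. Ighv1-61 led in β8 isotype pool 2 at 16.7 FPKM and in Mock pool 3 at 3.64 FPKM. In Mock pool 2 Ighv5-6 led at 48.2 FPKM. The leader of Mock pool 1, Ighv8-7 at 4.58 FPKM, is annotated as a pseudogene and was at 0 in the other 8 pools.

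**Figure D4:**
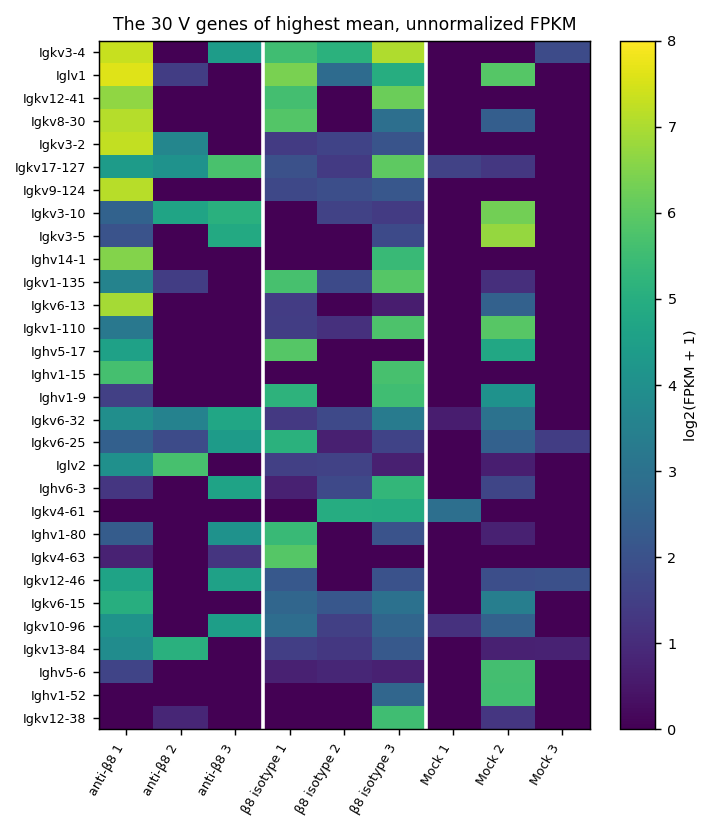
Unnormalized FPKM on a log2(FPKM + 1) colour scale for the 30 V genes of highest mean (rows) in the 9 pools (columns, white lines between groups). The rows fill mainly in anti-β8 pool 1, β8 isotype pools 1 and 3 and Mock pool 2. Anti-β8 pool 3 fills fewer rows, but several of them are bright, such as Igkv17-127 at 50.9 FPKM and Igkv3-10 at 32.7 FPKM. β8 isotype pool 2 is dim outside Igkv3-4 and Igkv4-61, at 33.5 and 29.8 FPKM.

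Anti-β8 against β8 isotype asks what the blocking antibody changed where the tumour expressed β8. No immunoglobulin gene passed the test. Of the 143 members 65 passed the filter on low values (at least 1 FPKM in at least 3 of the 9 libraries), 9 constant and 56 V genes, and limma with Benjamini-Hochberg adjustment called 0 of them, beside 0.0637% of all 12555 genes tested. At an unadjusted p under 0.05 stood 4 of the 65. In anti-β8 1 of them was higher, beside 3.97% of all genes, and 3 were lower, beside 6.2%. In the unnormalized table the pools did not overlap for 2 members that were higher in anti-β8 (Igkv3-10 and Igkv6-32, background 4.95%) and 1 that was lower (Igha, background 10.8%).

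The smallest p belonged to Igkv6-32, at 14.5, 10.7 and 25.6 FPKM in anti-β8 against 1.49, 2.39 and 9.00 in β8 isotype. Its log2 difference in normalized FPKM + 1 was 2.09 ± 0.80 (SE; limma adjusted p = 0.445). Igkv4-61 was at 0 in all 3 anti-β8 pools and at 0, 29.8 and 29.4 FPKM in β8 isotype, with a log2 difference of -3.21 ± 1.23 (limma adjusted p = 0.445). Ighg2c, lower in anti-β8 pools 2 and 3, had a log2 difference of -2.66 ± 1.15 (limma adjusted p = 0.477). Without anti-β8 pool 1 it passed, at -4.22 ± 0.75 (limma adjusted p = 0.0408), and without pools 2 and 3 it turned to 0.45. Igkv1-135 gave -2.52 ± 1.12 and Igkv3-10 gave 3.2 ± 1.5 (limma adjusted p = 0.484 and 0.50).

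For the other heavy and kappa constant genes tested, the log2 difference was 0.24 ± 0.40 for Igkc, 0.18 ± 0.16 for Ighm, 1.20 ± 0.66 for Ighd, -0.49 ± 2.08 for Ighg1 and -0.30 ± 0.35 for Igha. Those of Igkc, Ighg1 and Igha were smaller than their SE. Those of Ighm and Ighd were larger than their SE but did not pass (limma adjusted p = 0.703 and 0.545). The SE of Ighg1, over 2 log2 units, comes with pools that range over 204, 7.11 and 16.5 FPKM in anti-β8. Over all 143 members in the unnormalized table, 63 group means were higher and 74 lower in anti-β8, with a median log2 difference of -0.23, beside -0.17 over all 16409 genes. That table shifts the median of all genes by more than 0.1 in this comparison and in anti-β8 against Mock, so member medians are to be read against those of all genes. With anti-β8 pool 1 alone, 1 library whose spread was taken from the other groups, 4 members were among the 12 genes called over all genes, and all 4 were higher: Ighv1-5, Igkv3-2, Igkv6-13 and Igkv9-124.

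β8 isotype against Mock asks what β8 on the tumour cells changed, together with the isotype antibody. More immunoglobulin genes had a higher than a lower mean in β8 isotype, but none passed the test. limma called 0 of the 65 members, beside 0.00796% of all genes tested, and 5 had an unadjusted p under 0.05. Of these 4 were higher, beside 2.99% of all genes, and 1 was lower, beside 2.58%. Pools did not overlap for 7 members that were higher (Ighg2c, Igkv1-135, Igkv13-84, Igkv3-2, Igkv3-4, Igkv9-124 and Iglv2), 10.8% of the 65 beside 10.4% of all genes. Nor did they overlap for 2 that were lower (Igha and Igkv4-59), 3.08% beside 6.97%. For Iglv2 the gap was only that between 0.612 FPKM in β8 isotype pool 3 and 0.610 FPKM in Mock pool 2. Over all 143 members 107 group means were higher and 29 lower, with a median log2 difference of 0.57, beside 0.04 over all genes. Of all 16409 genes 8818 were higher and 7378 lower. The members share their pools, so these are not independent results. Summed V genes were at 668, 170 and 1035 FPKM in β8 isotype, and its pool 2 lay below Mock pool 2 at 576 FPKM.

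Ighg2c, above 8 FPKM in every β8 isotype pool and under 0.1 in every Mock pool, had the smallest p, with a log2 difference of 4.78 ± 1.15 (limma adjusted p = 0.369). It and Igkv3-4 passed when only the 6 libraries of this comparison were fitted (limma adjusted p = 0.0166 and 0.0210), and likewise without anti-β8 pools 2 and 3. Igkv3-4 differed by 5.33 ± 1.58 in the fit of all 9 libraries (limma adjusted p = 0.574) and Igkv1-135, at 49.5, 2.46 and 58.6 FPKM in β8 isotype and 0, 1.12 and 0 in Mock, by 4.09 ± 1.12 (0.449). Ighv1-26 differed by 2.13 ± 0.84 (limma adjusted p = 0.756) and Igha by -1.04 ± 0.35 (0.638). Igha passed the filter only through the Mock pools, so its direction and its non-overlap are not independent of the filter. Igkc, Ighm and Ighg1 differed by 0.36 ± 0.40, 0.29 ± 0.16 and 3.14 ± 2.08.

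Anti-β8 against Mock compares the groups that differ in both β8 and the antibody, and it shares its pools with the other comparisons. limma called 0 of the 65 members, beside 0.183% of all genes tested. At an unadjusted p under 0.05 stood 9 members. Of these 8 were higher, beside 6.09% of all genes, and 1 was lower, beside 7.87%. Pools did not overlap for 4 members that were higher (Ighd, Ighm, Igkv17-127 and Igkv6-32), beside 6.54% of all genes, and for 1 that was lower (Igha), beside 9.84%. Over all 143 members 90 group means were higher, 32 lower and 21 equal, with a median log2 difference of 0.41, beside -0.15 over all genes. Of all 16409 genes 6476 were higher and 9640 lower.

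Igha had the smallest p, with a log2 difference of -1.33 ± 0.35 (limma adjusted p = 0.171). Since Igha passed the filter only through the 3 Mock pools, its direction and its non-overlap here are not independent of the filter. Igkv6-32 differed by 2.88 ± 0.80 (limma adjusted p = 0.190) and Igkv17-127, at 20.2, 15.8 and 50.9 FPKM in anti-β8 and 2.02, 1.44 and 0 in Mock, by 3.88 ± 1.07 (0.193). Ighm averaged 356 ± 56.3 normalized FPKM in anti-β8 and 255 ± 32.3 in Mock (SD, n = 3 pools each), a log2 difference of 0.48 ± 0.16 (limma adjusted p = 0.264). Ighd averaged 14.3 ± 7.85 normalized FPKM in anti-β8 and 3.29 ± 2.11 in Mock, a log2 difference of 1.84 ± 0.66 (limma adjusted p = 0.273). Iglv2 differed by 3.06 ± 1.07 (limma adjusted p = 0.267). Between 1 and 6 members passed when some anti-β8 or β8 isotype libraries were left out: Igkv13-84, Igkv3-2, Igkv9-120 and Iglv2 without anti-β8 pool 3, Igkv17-127 without β8 isotype pool 3, and Ighv1-5, Igkv13-84, Igkv3-2, Igkv6-13, Igkv9-124 and Iglv2 with anti-β8 pool 1 alone, where 27 genes were called over all genes and the spread of that arm was again that of the other groups.

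Plasma cell and B cell genes were set beside the immunoglobulin values. Jchain, the protein that joins IgM and IgA into polymers, was at 30.5, 0 and 1.28 FPKM in anti-β8, 14.1, 3.34 and 25.8 in β8 isotype, and 0, 18.7 and 0 in Mock. The summed IgG genes were at 242, 7.21 and 16.5 FPKM in anti-β8, 100.3, 24.6 and 185 in β8 isotype, and 0.0386, 108 and 0 in Mock. The 6 pools with any Jchain, put in order of Jchain (anti-β8 pool 1, β8 isotype pool 3, Mock pool 2, β8 isotype pools 1 and 2, anti-β8 pool 3), stood in the same order by IgG. Jchain was singled out after its values were seen, and the points share their libraries, so this is a description with no test.

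Mzb1, a chaperone of the secretory pathway in B and plasma cells, was at 20.4, 0 and 0 FPKM in anti-β8, 6.70, 9.64 and 11.5 in β8 isotype, and 0, 7.57 and 0.472 in Mock. Derl3, which serves protein quality control in the endoplasmic reticulum, reached 2.20 to 4.07 FPKM in those same pools rich in Mzb1 was at 0.664 in Mock pool 3, and was at 0 in anti-β8 pools 2 and 3 and in Mock pool 1. Tnfrsf17, the plasma cell receptor BCMA, was at 0 in every pool. Of the 20 plasma cell genes listed, 19 were found under their own symbol (Tent5c is an alias of Fam46c). Summed, these 19 genes reached 640 to 663 FPKM in anti-β8, 625 to 730 in β8 isotype and 574 to 646 in Mock, with 1 to 6, 1 to 2 and 1 to 4 of them at 0. Most of that sum came from genes such as Xbp1 and Ssr4, which Tregs also express. limma called 0 of the 17 tested genes in each comparison. The numbers at an unadjusted p under 0.05 were 0 in anti-β8 against β8 isotype, and 2 higher with 1 lower in each comparison with Mock, against the shares of all genes given above.

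Some B cell genes had another order over the pools, and the genes of the list differed among themselves. Cd79a, the signalling chain of the B cell receptor, was at 94.6, 74.4 and 66.7 FPKM in anti-β8, 29.0, 7.65 and 59.0 in β8 isotype, and 6.61, 29.9 and 14.0 in Mock, so the anti-β8 pools were above all others. Anti-β8 pool 2, with 0 Jchain and 1 heavy V gene, thus had more Cd79a than any β8 isotype or Mock pool. The 20 B cell genes summed to 174 to 323 FPKM in anti-β8, 95.7 to 221 in β8 isotype and 97.1 to 143 in Mock, with 0 to 7, 0 to 1 and 0 to 6 genes at 0. These sums overlapped between anti-β8 and β8 isotype. Ms4a1, the B cell surface protein CD20, was at 6.03, 0.0950 and 5.49 FPKM in anti-β8, 2.33, 1.47 and 3.17 in β8 isotype, and 0, 1.08 and 1.72 in Mock. Other list genes did not follow Cd79a. Blk was at 17.8, 0 and 0 FPKM in anti-β8, 9.21, 4.27 and 2.23 in β8 isotype, and 4.48, 7.27 and 7.46 in Mock. Ralgps2 was at 7.86, 0.0569 and 2.59 FPKM in anti-β8, below the 9.09, 10.8 and 16.3 of β8 isotype.

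limma called 0 of the 17 B cell genes tested in each comparison. In anti-β8 against Mock 9 were higher and 0 lower at an unadjusted p under 0.05, beside 6.09% and 7.87% of all genes, and the median log2 difference of the 17 was 1.47. Among those of smallest p were Fcer2a (the IgE receptor CD23) and Cd22 (an inhibitory receptor of B cells), with log2 differences of 2.76 ± 0.62 and 2.55 ± 0.58 (limma adjusted p = 0.113 for each). In anti-β8 against β8 isotype 4 were higher and 1 lower at that level, beside 3.97% and 6.2% of all genes, with Cd22 at 2.04 ± 0.58 (limma adjusted p = 0.381). In β8 isotype against Mock 2 were higher and 0 lower, beside 2.99% and 2.58% of all genes. The part that B cells or plasma cells in the sorted pools have in any value above was not tested.

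The genes that assemble antibodies or signal from the B cell receptor formed a list of 19. Rag1 and Rag2, the recombinase of V gene joining, were at 0 in every pool, and so were Igll1 and Vpreb2 of the surrogate light chain. limma called 0 of the 10 tested genes in each comparison. At an unadjusted p under 0.05 stood 2 higher in anti-β8 against β8 isotype, 1 higher in β8 isotype against Mock and 4 higher in anti-β8 against Mock, with 0 lower in each. Cd79a and Cd79b are in the B cell list as well, and Pou2af1 in the plasma cell list, so these counts partly repeat those above. Cd79a counts in anti-β8 against β8 isotype, Cd79b in β8 isotype against Mock, and both in anti-β8 against Mock. The shares of all genes that were higher at that level in those comparisons are 3.97%, 2.99% and 6.09%. Plcg2, a phospholipase of the receptor pathway, was at 6.17, 36.2 and 23.1 FPKM in anti-β8, 6.09, 4.21 and 3.69 in β8 isotype, and 4.72, 2.75 and 2.27 in Mock, with a log2 difference of 2.25 ± 0.58 in anti-β8 against Mock (limma adjusted p = 0.168). Cd79a and Cd79b, its partner chain, differed there by 2.31 ± 0.66 and 1.34 ± 0.49 (limma adjusted p = 0.197 and 0.281).

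**Figure D5:**
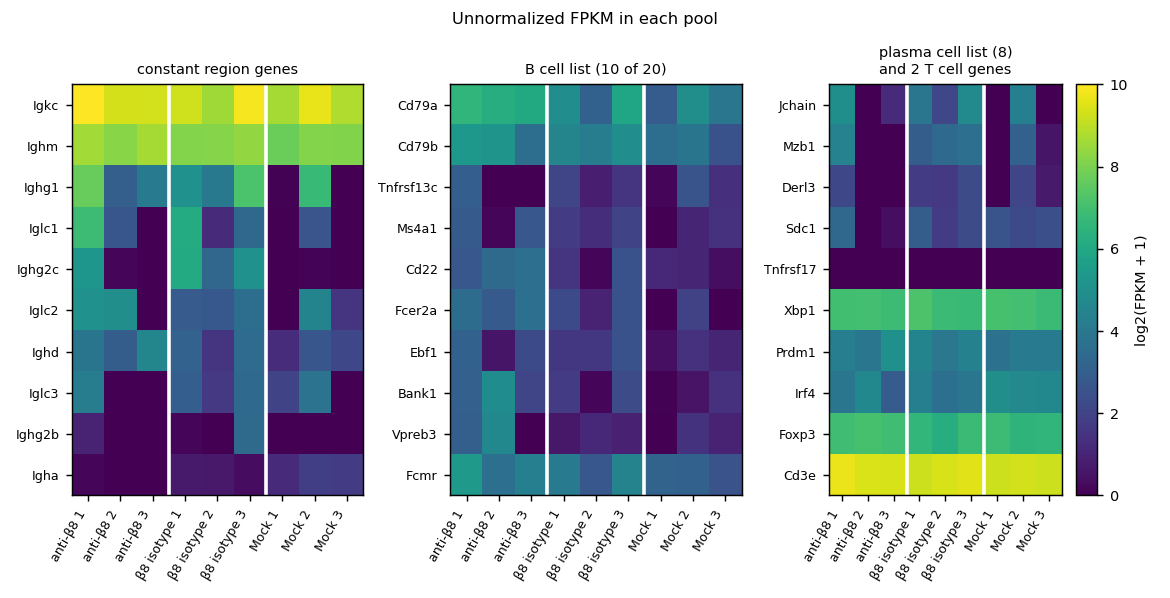
Unnormalized FPKM on a log2(FPKM + 1) colour scale for the 10 constant region genes (left), 10 genes of the B cell list (middle), and 8 genes of the plasma cell list with Foxp3 and Cd3e (right), in the 9 pools with white lines between groups. Igkc and Ighm are bright in all pools, Jchain, Mzb1 and Derl3 are at or under 1.28 FPKM in anti-β8 pools 2 and 3 and Mock pools 1 and 3, and Cd79a is highest in the anti-β8 pools.

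Other cell types also had transcripts in these pools. The 9 myeloid genes found, of 10 listed, summed to 648 to 974 FPKM in anti-β8, 324 to 1018 in β8 isotype and 400 to 788 in Mock, with up to 3 of them at 0 in a pool. Anti-β8 pool 1, with the highest immunoglobulin sum, had a myeloid sum of 974 FPKM, and β8 isotype pool 3, with the next highest, had 324 FPKM. The 7 fibroblast genes summed to 18.7 to 65.9 FPKM in anti-β8, 48.5 to 153 in β8 isotype and 7.31 to 9.91 in Mock, which lay below both other groups, with 1 to 4, 0 to 1 and 2 to 3 genes at 0. The 12 T cell and Treg genes summed to 6347 to 6712 FPKM in anti-β8, 6626 to 7148 in β8 isotype and 5553 to 6554 in Mock, and none was at 0.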

How the data were processed

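RNA from the sorted cells was made into full-length cDNA with SMART-Seq v4 and into Nextera XT libraries, per the labels' protocols, a procedure with no molecular identifiers and no strand marking. Build GRCm38 and the tools RSEM 1.3.1, STAR 2.6.1a, Cufflinks, Picard and Trim Galore 0.5.0 are listed in the submitters' processing notes, without roles. The authors deposited FPKM, once unnormalized (53250 genes used, after 1 row with shifted cells was left out) and once normalized, with the 16409 genes above 1 FPKM in some library. The sorted values of the normalized libraries agree to within 0.0907% over the top 1000, which is quantile normalization. It averages zeros, so the lowest values in anti-β8 pools 2 and 3 are 0.0520 and 0.0936, and genes at 0, V to constant ratios, non-overlap and medians were therefore read from the unnormalized table, a choice made after seeing the data. Low values above 0 were raised by more than those lowest values in both of these pools. In anti-β8 pool 2 Ighg2c went from 0.0937 to 1.06 FPKM and Ms4a1 from 0.0950 to 1.07 FPKM. In anti-β8 pool 3 Jchain went from 1.28 to 2.90 FPKM and Ighv1-82 from 1.13 to 2.68 FPKM. The filter and the tests use these raised values. Read totals are not given, so the depth is unknown and no counting interval was computed.

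Genes with at least 1 FPKM in at least 3 of the 9 libraries (12555) were fitted on log2(FPKM + 1) of the normalized table in limma 3.58.1 (R 4.3.3), with 1 spread shared by all groups, trend and robust settings, two-sided tests and Benjamini-Hochberg adjustment at 0.05 over all genes. Log2 differences are on that scale, which understates changes of low genes. Pool numbers are shared by the groups, but deviations of same-numbered pools correlated at -0.040 to 0.046, so the numbers do not pair them and no block was used. Pools are the replicates, so p-values reflect how pools of mice vary.

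The immunoglobulin genes, marker lists and rule for named genes were chosen with earlier results of these data known. Named were all constant genes, the 3 V genes of highest mean and the leading V gene per chain and pool, the 5 members of smallest p per comparison, and the 3 genes of smallest p per list, of which 1 is not reported here. The list genes Slamf7 and Fkbp11 (anti-β8 against Mock, log2 differences of 1.26 and 1.56) and Creld2 (β8 isotype against Mock, 0.57) fall under that rule and did not pass. Itgam has more than 1 identifier and was left out. Sequences and coordinates are from GENCODE M21, whose release the authors may not have used, and identities are from global alignments of coding sequences.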

Additional observations from a re-analysis of the deposited data

How the results depend on the processing

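Of 782 recomputed values of named genes, 750 kept their direction and side of the threshold, 10 passed only under the alternative, and 22 changed sign, none of them a called value. Immunoglobulin genes called in anti-β8 against β8 isotype, β8 isotype against Mock and anti-β8 against Mock numbered 4, 2 and 6 without anti-β8 pools 2 and 3 (the lone library assumed to vary like the other groups), and 0 to 1, 0 and 0 to 4 with single pools left out. In β8 isotype against Mock they numbered 2 with only its 6 libraries and 1 with array weights. All genes called in anti-β8 against β8 isotype numbered 8, but 2 in the unnormalized table, 3 with a pseudocount of 0.1, 3 with 6 libraries, 3 without trend and robust settings, and 2 to 142 with single pools left out. In β8 isotype against Mock 1 gene was called, but 29 with 6 libraries, 0 without trend and robust settings, 111 with array weights, 30 without anti-β8 pools 2 and 3, and 1 to 2 with single pools left out. In anti-β8 against Mock 23 were called, but 15 without a filter, 13 without trend and robust settings, 14 with array weights, and 9 to 323 with single pools left out. With the replicate number as a block 2, 2 and 15 genes and no immunoglobulin gene were called. The pools do not deviate together by number, and the causes of these changes were not tested.

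When anti-β8 was represented by its pool 1 alone (added after seeing the data), the summed FPKM was 3661, the Ighm share 60.5%, the lambda share 12.6%, the V genes above 0 numbered 98 and the inverse Simpson index was 18.2. With single pools left out, V genes above 0 averaged 18 to 58 in anti-β8 and 19.5 to 39.5 in Mock. Changes of sign in anti-β8 against β8 isotype were 0.36 for Ighg1 and 1.34 for Iglc1 with array weights, -0.34 for Iglc2 with a pseudocount of 0.1, and 2.25 for Ighg1, 0.45 for Ighg2c, 3.39 for Iglc1 and 1.66 for Iglc3 without anti-β8 pools 2 and 3. Iglc3 in anti-β8 against Mock gave 0.61 with array weights and 2.30 without those pools. With single pools left out, the log2 difference in anti-β8 against β8 isotype ranged over -1.86 to 0.47 for Ighg1, -0.16 to 0.60 for Igkc, -2.05 to 1.31 for Iglc1 and -0.50 to 1.96 for Iglc2. That of Iglc3 ranged over -1.83 to 0.49 in anti-β8 against Mock and -0.32 to 1.59 in β8 isotype against Mock.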

Other observations

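The short J segments that V genes are joined to were nearly silent as features of their own. Of the 14 J segments listed in the unnormalized table, 2, 0 and 0 were above 0 in the anti-β8 pools, 0, 1 and 2 in the β8 isotype pools, and 0, 2 and 1 in the Mock pools. They lie outside the rule for the immunoglobulin genes.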
